A study of Mus musculus with 22 samples.

Results

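Among the hnRNP A1 footprints of mouse spinal cord, some began at the first base and ended at the last base of 1 annotated exon. A footprint is a stretch of genome retained as bound by hnRNP A1 after immunoprecipitation, and it was counted here when both of its ends equalled those of an exon, with no base of tolerance. By this rule 12237 of 136207 footprints in 10 mice spanned exactly 1 exon, 8.98% of all. They fell on 8157 different exons of 3038 genes.

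The 10 spinal cords came from female, wild-type C57Bl/6 mice. Each was UV crosslinked, and hnRNP A1 was precipitated from it with a monoclonal antibody after RNase I had trimmed the RNA. The clone is 9H10 by the sample labels and 4B10 by the study's methods. Naïve mice (n = 3) were age-matched and healthy by the design text. Experimental autoimmune encephalomyelitis (EAE), a model of multiple sclerosis, was induced with the myelin peptide MOG(35-55), complete Freund's adjuvant and pertussis toxin, at 12 weeks of age by the sample labels and at 8 weeks by the design text. Cords were taken 15 days after clinical onset. Clinical scores were 1 to 1.5 in the mild EAE group (n = 3) and 2.5 to 3 in the severe EAE group (n = 4). Because naïve mice were not immunized, immunization and disease cannot be told apart. A whole cord holds many cell types, so fewer cells of a type and less RNA per cell cannot be told apart either.

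Heterogeneous nuclear ribonucleoprotein A1 (hnRNP A1) is an abundant RNA-binding protein of the nucleus. It is best known for repressing splice sites and favouring exon skipping, often from UAG-containing sites in or near an exon, where it can oppose activators of the SR protein family. It also moves between nucleus and cytoplasm and binds spliced messenger RNA. An internal exon lies between a 3′ splice site, whose intron ends in AG, and a 5′ splice site, whose intron begins with GT in the DNA letters. A footprint on a spliced messenger can therefore stop at an exon's ends in the genome although the RNA continues into the next exon, and the assembled contigs were aligned in spliced mode.

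Lists of very different length made up the severe group. Severe EAE mice 1, 2 and 3 had 2670, 209 and 673 footprints in all, and severe EAE mouse 4 had 31870, against 17119 to 17494 in naïve mice and 9751 to 24433 in mild EAE mice. The whole-exon footprints followed the same split, with 100, 6 and 20 in severe EAE mice 1 to 3 and 3604 in mouse 4. Values of severe EAE mice 2 and 3 thus rest on very few exons, and comparisons are given below with and without them where that changes the direction. The files hold positions only, so the number of reads behind a footprint is unknown.

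Sequences of 9 spanned exons are shown to make the shape of these sites visible. They are the exons found in the most mice (Arhgef1, Gripap1, Col11a2, Nsmf), 1 found in all naïve but no EAE mice (Pnn), those found in 5 EAE but no naïve mice (Nap1l1, Tacc1), and alternative exons that some transcripts skip (Kif1a, Hnrnpa2b1, and Nsmf again). Capitals mark the exon, which is also the whole footprint, and lower case marks 12 nt of intron on both sides. Each is written 5′ to 3′ on the strand of the gene, in DNA letters, from the GRCm38 genome, with the coordinates of the exon.
Arhgef1 exon 22 (chr7:24923364-24923441, + strand): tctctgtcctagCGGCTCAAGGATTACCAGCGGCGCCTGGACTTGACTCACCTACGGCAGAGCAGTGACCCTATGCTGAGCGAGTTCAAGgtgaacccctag
Gripap1 exon 20 (chrX:7812682-7812738, + strand): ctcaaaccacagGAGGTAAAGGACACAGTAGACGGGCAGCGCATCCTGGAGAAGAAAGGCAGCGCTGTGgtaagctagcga
Col11a2 exon 28 (chr17:34054305-34054349, + strand): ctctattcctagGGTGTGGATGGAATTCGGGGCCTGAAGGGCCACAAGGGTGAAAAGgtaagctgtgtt
Nsmf exon 11 (chr2:25060692-25060725, + strand): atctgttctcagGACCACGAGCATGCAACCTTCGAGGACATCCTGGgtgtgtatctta
Pnn exon 4 (chr12:59068726-59068798, + strand): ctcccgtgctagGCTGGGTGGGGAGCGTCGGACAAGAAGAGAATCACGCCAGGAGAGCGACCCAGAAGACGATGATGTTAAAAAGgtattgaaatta
Nap1l1 exon 3 (chr10:111485499-111485584, + strand): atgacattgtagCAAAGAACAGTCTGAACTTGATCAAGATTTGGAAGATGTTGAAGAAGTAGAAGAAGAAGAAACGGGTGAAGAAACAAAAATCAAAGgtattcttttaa
Tacc1 exon 9 (chr8:25167362-25167405, - strand): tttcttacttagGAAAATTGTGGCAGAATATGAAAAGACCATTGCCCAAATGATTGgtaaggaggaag
Kif1a exon 14 (chr1:93065552-93065578, - strand): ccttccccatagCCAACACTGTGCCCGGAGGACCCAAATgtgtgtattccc
Hnrnpa2b1 exon 9 (chr6:51464428-51464547, - strand): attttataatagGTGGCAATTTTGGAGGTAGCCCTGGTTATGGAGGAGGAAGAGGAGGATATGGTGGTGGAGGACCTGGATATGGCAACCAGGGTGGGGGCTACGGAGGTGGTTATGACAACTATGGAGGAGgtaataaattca
In each of them the footprint's first base followed an ag and its last base preceded a gt. Of 8013 internal exons spanned exactly, 7956 (99.3%) were flanked by AG and GT. This follows from matching to annotated exon ends, which are splice sites, and is no result about the footprints. The Gripap1 exon is among those that hold both searched motifs, with 1 UAG and 1 AGGU, and the Arhgef1 exon holds neither.

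Whole-exon footprints made up 7.31%, 3.25% and 7.96% of the footprints of naïve mice 1, 2 and 3. In mild EAE mice 1, 2 and 3 the share was 13.1%, 6.96% and 11.1%. In severe EAE mice 1 to 4 it was 3.75%, 2.87%, 2.97% and 11.3%, and by counting error alone the 6 of 209 footprints of mouse 2 allow 1.06% to 6.14% (exact 95% binomial interval). Every group thus spanned a wide range, and the ranges of all 3 groups overlapped.

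**Figure D1:**
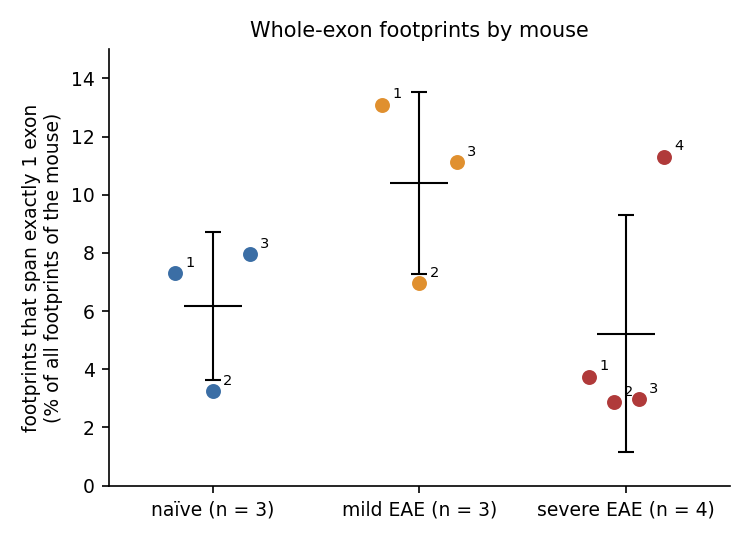
Share of each mouse's footprints that span exactly 1 exon, in % of all its footprints, for the 3 groups (n as on the axis). Points are mice with their number, and black marks are the group mean ± SD. Severe EAE mouse 4, at 11.3%, stands above the other severe EAE mice, at 2.87% to 3.75%.

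Naïve mice had a mean share of 6.17% ± 2.55 (SD, n = 3). The means were 10.4% ± 3.13 (SD, n = 3) with mild EAE and 5.22% ± 4.08 (SD, n = 4) with severe EAE. Mild EAE exceeded naïve by 4.22 percentage points (two-sided exact permutation test, p = 0.3, adjusted p = 0.771), where 3 mice against 3 cannot give a p below 0.1. Severe EAE minus naïve was -0.947 points (exact permutation p = 0.771, adjusted p = 0.771), and without severe EAE mice 2 and 3 the difference was 1.36 points in the other direction (exact permutation p = 0.9). All 7 EAE mice together differed from naïve mice by 1.27 points (exact permutation p = 0.667, adjusted p = 0.771). None of these differences passed the test.

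Nearly all spanned exons were internal and coding. Of 8157 different exons, 8018 (98.3%) were internal, 46 were first exons, 48 were last exons and 45 were genes of a single exon. The 45 single-exon genes were small structural RNAs, namely 35 snoRNAs, which guide chemical modification of other RNAs, 5 rRNAs, 3 snRNAs and 2 scaRNAs. Coding sequence filled 7760 exons (95.1%) and coding genes held 8048 (98.7%). Annotations of several genes shared 138 of the exons, and for these the gene could not be settled. Because footprints were merged without strand, the strand given is that of the annotated gene.

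How many exons of the same transcripts were covered in other ways gives the background. Over all mice, 34847 internal exons had at least 1 covered base, counting exons that overlap within a gene once, and 7955 of them (22.8%) were spanned exactly in some mouse. The remainder were covered in part or lay inside a larger footprint. Footprints with other ends were the rule on exons too. Of the footprints that overlapped an exon, 4.34% to 15.5% per mouse had both ends on the ends of 1 exon, 22.9% to 62.7% had a single end there and 21.8% to 72.0% had none. Between 0 and 4 footprints per mouse ran from the start of one exon to the end of another. The match was also sharp, since 12237 footprints matched both exon ends and 2506 and 2097 more had a larger end offset of 1 and 2 nt.

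These exons were shorter than partly covered ones. The 8157 exons were 12 to 547 nt long with a median of 91 nt and quartiles of 66 and 121 nt. In each mouse they were compared with internal exons that a footprint covered only in part. The median length of internal exons spanned exactly was 81.5 nt ± 10.9 (SD, n = 10 mice), against 144 nt ± 8.34 for partly covered ones. It was shorter in 10 of 10 mice, with a mean difference of -62.9 nt (exact sign-flip permutation test, adjusted p = 0.00391, where the raw p of 0.00195 is the smallest it can give). This contrast is partly built in. An exon spanned exactly has the length of its footprint, and a partly covered one is longer than what footprints covered of it. The difference in length did not differ detectably between naïve and EAE mice (-65.7 and -61.7 nt, exact permutation p = 0.5).

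Shorter exons were spanned whole more often, class by class. Among exons of at most 27 nt that were either spanned exactly or partly covered, 82.9% to 100% were spanned exactly in the 7 mice with more than 2 such exons. For exons of 28 to 60 nt the share was 37.5% to 69.2% over the 10 mice. It was 0% to 42.5% at 61 to 100 nt, 0% to 21.7% at 101 to 150 nt and 0% to 11.4% at 151 to 200 nt. Above 200 nt it was at most 3.89%. Footprints have a limited length themselves, and how far that sets this order was not tested.

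**Figure D2:**
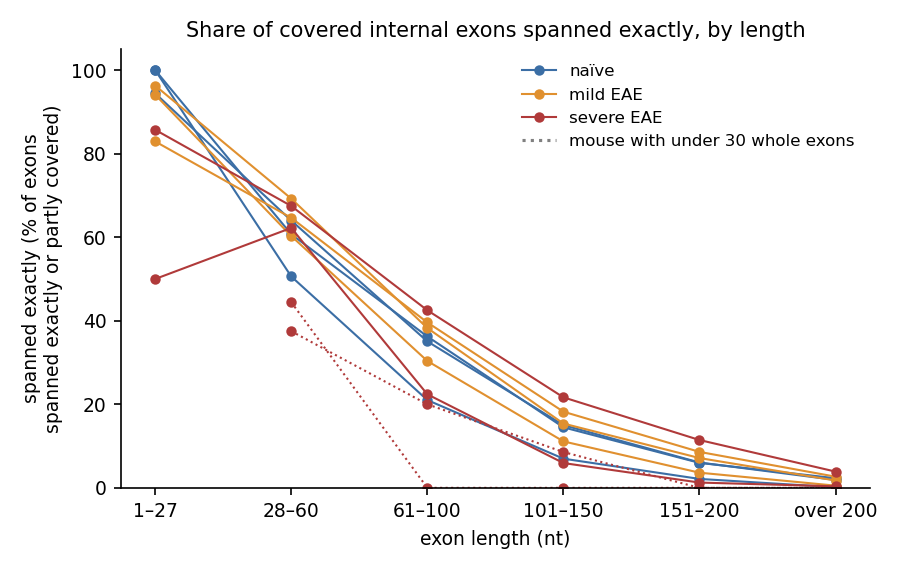
Share of internal exons spanned exactly, in % of those spanned exactly or partly covered, against exon length class in nt. Each line is a mouse, colours are groups, and dotted lines are the mice with 6 and 20 whole-exon footprints. The share falls with length in the mice with long lists, to at most 3.89% above 200 nt.

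Very short exons are of interest because microexons, which are often used in neurons alone, fall in this range. At most 27 nt long were 94 of the 8157 exons, and 204 were longer than 200 nt. By mouse, the 3 naïve mice had 19, 5 and 19 such exons. The mild EAE lists held 26, 16 and 34, and those of severe EAE 1, 0, 0 and 36. In the same mice 0 to 7 exons of that length were only partly covered.

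A neighbouring exon almost always carried a footprint as well. An internal exon was scored when, in the same mouse, a footprint lay on an exon that an annotated transcript joins to it and reached the joined splice site. In naïve mice 97.5%, 97.4% and 96.2% of the exons spanned exactly had such a footprint on at least 1 side. Mild EAE mice had 98.2%, 95.8% and 97.2%. In severe EAE mice 1 to 4 the share was 94.8%, 100% (4 of 4 exons), 66.7% (12 of 18, exact 95% binomial interval 41.0% to 86.7%) and 98.0%. Apart from severe EAE mouse 3, all mice lay above 94%.

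How this compares with partly covered internal exons depended on what was counted. Counted per exon, 71.8% ± 8.78 (SD, n = 10 mice) of the partly covered ones had a footprint on the next exon, against 94.2% ± 9.77, a difference of 22.4 percentage points (exact sign-flip permutation test, adjusted p = 0.00391). This contrast is partly built in, because an exon spanned exactly has a footprint end on both of its splice sites by choice, while a partly covered one may have none. Counted per splice site instead, over sites where a footprint on the exon itself ended, the order turned. The next exon then had a footprint at 79.1% ± 7.50 (SD, n = 10 mice) of the sites of exons spanned exactly and at 88.0% ± 6.39 of those of partly covered exons. The difference was -8.89 points, lower in 10 of 10 mice (exact sign-flip permutation p = 0.00195), in a comparison added after the values were seen. No direction is therefore drawn for the next-exon share. Footprints on the next exon on both sides were seen for 50% to 74.6% of exons spanned exactly and for 0% to 4.01% of partly covered ones, a contrast that is partly built in too. The lists do not say which footprints came from the same contig, so whether neighbouring footprints were parts of 1 spliced molecule was not tested.

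Many of these exons formed runs of neighbours. In the 7 mice with the longest lists, 24.3% to 48.8% of internal whole-exon footprints had another on an adjacent exon. In naïve mouse 1 the longest run was 7 exons of Dst, in mild EAE mouse 1 it was 11 exons of Col16a1, and in mild EAE mouse 3 it was 8 exons of C4b, a complement component.

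**Figure D3:**
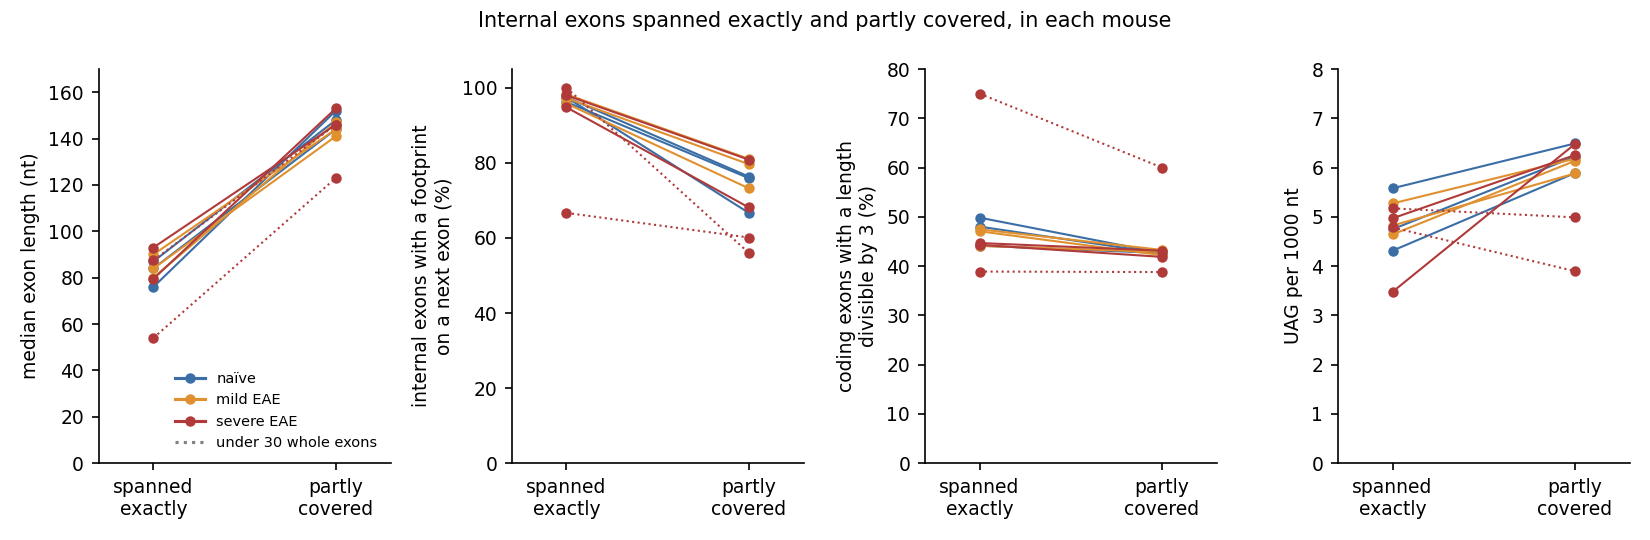
Values of each mouse for internal exons spanned exactly (left of each panel) and partly covered (right), for median length in nt, the share with a footprint on a next exon in %, the share of coding exons with a length divisible by 3 in %, and UAG per 1000 nt. Lines join the values of a mouse, colours are groups, and dotted lines are the mice with 6 and 20 whole-exon footprints. Length was lower for exons spanned exactly in 10 of 10 mice. The next-exon share, counted per exon, was higher in 10 of 10 and turns direction when counted per splice site.

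An exon whose length is divisible by 3 can be left out of a messenger without shifting the reading frame. Such lengths made up 49.7%, 47.7% and 44.1% of coding exons spanned exactly in naïve mice 1 to 3. For mild EAE mice 1 to 3 they were 47.0%, 47.4% and 44.1%, and for severe EAE mice 1 to 4 they were 44.2%, 75% (3 of 4), 38.9% (7 of 18) and 44.3%. Partly covered internal exons had 44.0% on average, below the 48.3% of internal exons spanned exactly, and the order was the same in 10 of 10 mice (difference 4.35 points, exact sign-flip permutation test, adjusted p = 0.00391).

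Without collagen genes that difference no longer passed the test. Collagens are the fibrous proteins of extracellular matrix, and their triple-helix exons are built from repeated Gly-X-Y codons, often 45 or 54 nt long. They held 267 of the 8157 exons (3.27%), in 25 genes, and 252 of their 266 coding exons (94.7%) had a length divisible by 3. The most common length among all exons was 54 nt, with 168 exons, of which 113 were in collagen genes. In the 8 mice with at least 30 whole-exon footprints, collagens made up 2.25% to 8.00% of whole-exon footprints and 0.704% to 1.58% of partly covered exons. In those 8 mice the difference was 3.55 points with collagen genes (exact sign-flip permutation p = 0.00781) and 1.24 without them (exact sign-flip permutation p = 0.164). Without them, exons spanned exactly stayed higher in every naïve and mild EAE mouse and in severe EAE mouse 4. They were lower in severe EAE mice 1 to 3. Over all 10 mice the difference without collagen genes turned to -3.84 (p = 0.486 by the same permutation test). That turn came mainly from severe EAE mouse 2, which kept 1 coding exon without collagens, and without this mouse as well the difference was -0.0981 (exact permutation p = 0.973). These removals were chosen after the values were seen. Within 60 to 200 nt the difference was 2.167 points (exact permutation p = 0.121).

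The first base of a coding exon can be the first base of a codon or fall inside one. In the 8 mice with at least 30 whole-exon footprints, 50.7% to 57.0% of coding exons spanned exactly began on the first base of a codon, 20.4% to 22.9% began with 1 base left over from a codon and 22.4% to 27.7% with 2. Partly covered exons of those mice began on the first base in 46.9% to 51.6%. Of the 267 collagen exons, 255 began on the first base, and the part of collagens in this contrast was not tested. Internal exons spanned exactly in the same 8 mice had a median rank of 0.470 to 0.500 on a scale from first (0) to last (1), and partly covered ones had 0.489 to 0.502. Exons spread evenly along transcripts give such a median too, so no position is drawn from it.

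Alternative use was uncommon in these exons. Over the annotated transcripts that span an internal exon, 7345 exons were constitutive, 340 were skipped by at least 1 transcript and 325 had other ends in some transcript. Alternative exons of both kinds made up 8.16%, 8.39% and 9.17% of the internal exons spanned exactly in naïve mice. They made up 7.39%, 8.10% and 7.97% in the mild EAE lists. In the severe EAE lists they made up 6.32%, 0% (0 of 4), 0% (0 of 18) and 7.68%. All naïve mice thus lay above all EAE mice, while the zeros of severe EAE mice 2 and 3 allow up to 60.2% and 18.5% (exact 95% binomial intervals). The gap was narrow. Naïve mouse 1 had an interval of 6.69% to 9.83%, and mild EAE mouse 2 had 6.14% to 10.4%. The EAE mean lay 3.22 points lower, with a difference of -3.22 (exact permutation p = 0.075, adjusted p = 0.375). In the 8 mice with longer lists the difference was -1.08 (exact permutation p = 0.0357 before adjustment). With all annotated transcripts it was -2.99 (exact permutation p = 0.45).

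Within mice, alternative exons were 6.32% ± 3.41 (SD, n = 10) of internal exons spanned exactly and 8.73% ± 0.789 of partly covered ones, a difference of -2.42 points with 8 of 10 mice lower (exact sign-flip permutation test, adjusted p = 0.0164). Severe EAE mice 1 to 3, with the shortest lists, had differences of -4.35, -8 and -8.81 points, and the other 7 mice lay between -1.52 and 0.357. In the 8 mice with at least 30 whole-exon footprints the difference was -0.919 (exact permutation p = 0.0469). The call was lost without collagen genes (-2.62, exact permutation p = 0.0918, and -0.586 in those 8 mice, p = 0.367 by the same permutation test), when all annotated transcripts were used (-1.79, exact permutation p = 0.332) and when lengths were limited to 60 to 200 nt (-1.32, exact permutation p = 0.113). Skipped exons taken alone went the other way in most mice. Their mean share was 4.68% against 3.79% of partly covered exons in naïve mice and 4.24% against 3.52% in mild EAE mice. Severe EAE mouse 1 had 5.26% against 4.12%, and mouse 4 had 3.98% against 3.93%. Mouse 2 had 0% in both sets, and mouse 3 had 0% against 4.66%. This contrast was not tested.

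UAG, the core of the known hnRNP A1 site, was less dense in exons spanned exactly. It was counted on the strand of the gene only, as was AGGU, with which it overlaps in UAGGU. Both were counted over the whole exon, so for partly covered exons the density includes bases outside any footprint. Internal exons spanned exactly had 4.78 UAG per 1000 nt ± 0.578 (SD, n = 10 mice) and partly covered ones had 5.84 ± 0.807, and the value was lower in 8 of 10 mice (difference -1.06, exact sign-flip permutation test, adjusted p = 0.0164). AGGU had 2.67 per 1000 nt against 3.35, again lower in 8 of 10 mice (difference -0.682, exact sign-flip permutation test, adjusted p = 0.0215), with a difference of -0.225 without severe EAE mouse 2. Between exons of 60 to 200 nt the differences were -0.267 for UAG (exact permutation p = 0.238) and -0.0585 for AGGU (exact permutation p = 0.617), so both calls were lost within this band. Exons spanned exactly were still the shorter ones there, with medians of 91 to 100 nt in 9 mice against 127 to 136 nt. In naïve mice the density of UAG over all exons spanned exactly was 4.72, 4.40 and 5.55 per 1000 nt. The mild EAE lists had 4.94, 4.63 and 5.30, and those of severe EAE had 3.61, 10.8, 5.60 and 4.98, where the 10.8 came from 5 UAG in 465 nt. The EAE and naïve means differed by 0.797 (exact permutation p = 0.667, adjusted p = 0.95).

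Neither length, divisibility by 3 nor the next-exon share passed the test between naïve and EAE mice (adjusted p = 0.95 for each, exact permutation tests over 5 properties). Their mean differences were -0.810 nt, 1.49 points and -4.08 points, and each turned direction when a single mouse was left out.

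Most exons were spanned in a single mouse. Of the 8157 exons, 5604 (68.7%) were spanned exactly in 1 mouse, 1574 in 2, 602 in 3, 243 in 4, 101 in 5, 29 in 6 and 4 in 7. At least 2 mice of a group shared 388 exons (naïve), 769 (mild EAE) and 53 (severe EAE), and all 3 naïve or all 3 mild EAE mice shared 40 and 102. No exon was spanned in 3 severe EAE mice. The count fell to 91 or 97 without naïve mouse 1 or 3, to 219, 512 or 242 without mild EAE mouse 1, 2 or 3, and to 12 or 1 without severe EAE mouse 1 or 4. An exon spanned in some other mouse was often bare. In severe EAE mouse 4, 26.7% of exons spanned elsewhere were spanned again and 46.9% had no covered base, and in naïve mice 69.9% to 83.5% had none.

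By group, 520 exons were spanned exactly in at least 1 mouse of all 3 groups. Spanned in naïve mice alone were 1449, in mild EAE mice alone 2492 and in severe EAE mice alone 2008. At least 2 naïve but no EAE mice had 115 exons of 101 genes, 1.41% of the exons, where 2.32% of all internal exons with a covered base were covered in this pattern. At least 2 EAE but no naïve mice had 1105 exons of 686 genes (13.5%), where 15.2% of all covered internal exons had the pattern. Some base was covered in the other mice for 48 of the 115 and for 451 of the 1105 exons. Being spanned exactly is a stricter event than having a covered base. These shares are therefore not the same measure, and no verdict is drawn from them.

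**Figure D4:**
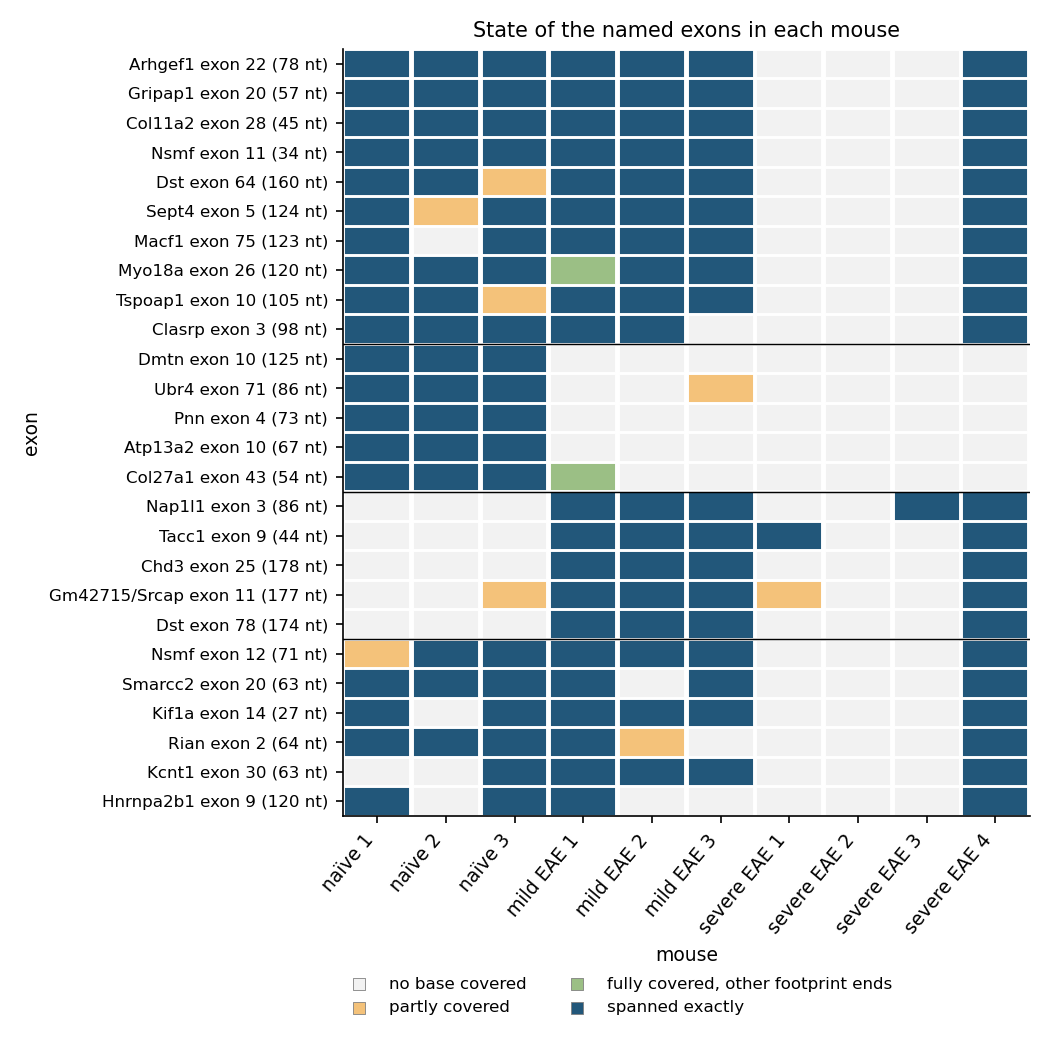
State of each named exon in each of the 10 mice. The blocks from top to bottom are the exons in the most mice, those in naïve mice alone, those in EAE mice alone and skipped exons, and colours give whether the exon was spanned exactly, fully covered by footprints with other ends, partly covered or bare. Severe EAE mice 1 to 3 are bare for nearly all of them.

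Exons spanned exactly in 7 mice were found in Arhgef1, Gripap1, Col11a2 and Nsmf. For each of the 4, all 3 naïve mice, all 3 mild EAE mice and severe EAE mouse 4 had a footprint of exactly this extent, and severe EAE mice 1 to 3 had no covered base. Arhgef1 encodes an exchange factor that activates the GTPase RhoA, and the exon was its exon 22 of 31, with 78 nt. Gripap1 encodes a protein of recycling endosomes that carry glutamate receptors, and the exon had 57 nt. The Col11a2 exon, with 45 nt, belongs to a chain of collagen XI.

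Nsmf, which encodes a messenger between the NMDA receptor and the nucleus, had 2 neighbouring exons in this class, both skipped in some transcripts. Its exon 11 of 34 nt was spanned in 7 mice. Its exon 12 of 71 nt was spanned in 6 mice and covered over 62 nt in naïve mouse 1. Neither length is divisible by 3, although their sum is.

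Spanned in 6 mice were exons of Dst, Sept4, Macf1, Myo18a, Tspoap1 and Clasrp, of 98 to 160 nt. Dst and Macf1 encode giant linkers between cytoskeletal filaments, Sept4 a septin, Myo18a an unconventional myosin, Tspoap1 a protein of the presynaptic active zone and Clasrp a protein that binds the splicing kinase Clk4. Severe EAE mice 1 to 3 had no covered base in any of these 6 exons. Of the other 7 mice, the 1 without an exact match was bare for Macf1 (naïve mouse 2) and for Clasrp (mild EAE mouse 3), and had some covered base in the remaining 4 exons. Dst exon 64 was covered over 45 of 160 nt in naïve mouse 3 and Sept4 exon 5 over 112 of 124 nt in naïve mouse 2. The exon of Myo18a was covered whole by a footprint with other ends in mild EAE mouse 1.

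All 3 naïve but no EAE mice had exons of Dmtn, Ubr4, Pnn, Atp13a2 and Col27a1, which are those named by the rule. Pnn encodes pinin, a protein of nuclear speckles and exon junctions, and its exon 4 of 73 nt was bare in all 7 EAE mice, as were the exons of Dmtn, an actin-bundling protein, and of Atp13a2, a lysosomal transporter. In contrast, the exon of Ubr4, a ubiquitin ligase, was covered over 72 of 86 nt in mild EAE mouse 3, and all 54 nt of the Col27a1 exon were covered by a footprint with other ends in mild EAE mouse 1. These were chosen for their pattern, so it has no test.

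In EAE mice alone, exons of Nap1l1 and Tacc1 were each spanned in 5 mice. Nap1l1 encodes a histone chaperone, and its exon 3 of 86 nt was spanned in all 3 mild EAE mice and in severe EAE mice 3 and 4. Tacc1 encodes a microtubule-associated protein, and its exon 9 of 44 nt was spanned in the mild EAE mice and in severe EAE mice 1 and 4. Both were bare in all naïve mice. Exons of the chromatin remodelers Chd3 (178 nt) and Srcap (177 nt) and a second exon of Dst (174 nt) were spanned in the 3 mild EAE mice and severe EAE mouse 4. The Srcap exon, which the annotation also gives to Gm42715, was covered over 80 nt in naïve mouse 3 and over 139 nt in severe EAE mouse 1.

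Of 340 skipped exons, 44 in 34 genes were spanned in at least 3 mice. Beside Nsmf, those described here are in Smarcc2, Kif1a, Rian, Kcnt1 and Hnrnpa2b1. Kif1a encodes the kinesin that carries synaptic vesicle precursors along axons, and its exon of 27 nt was spanned in 6 mice, among them naïve mice 1 and 3 and all 3 mild EAE mice. The 63 nt exon of Smarcc2, a subunit of a chromatin remodeling complex, was spanned in all 3 naïve mice, in 2 mild EAE mice and in severe EAE mouse 4. All 13 spanned exons of Smarcc2 were called skipped, and 1 transcript lacking an exon is enough for that call. Kcnt1, a sodium-activated potassium channel, had 63 nt spanned in naïve mouse 3, the 3 mild EAE mice and severe EAE mouse 4. Rian is a long noncoding RNA, and its exon of 64 nt was spanned in all naïve mice but in 2 EAE mice.

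Hnrnpa2b1, the gene of a close relative of hnRNP A1, had its skipped exon 9 of 120 nt spanned in naïve mice 1 and 3, mild EAE mouse 1 and severe EAE mouse 4. It was bare in the other 6 mice. Exons of Hnrnpa1 itself, which encodes the precipitated protein, were spanned in 3 EAE mice. These were exon 6 for mild EAE mice 1 and 2, and exon 5 for severe EAE mouse 4, each of 93 nt.

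Genes differed widely in how many of their exons were spanned. Of 13965 genes with a footprint, 3038 (21.8%) had at least 1 exon spanned exactly. A single such exon was seen in 1417 genes, 2 to 4 in 1197, at least 5 in 424 and at least 20 in 17. Large genes of many exons led. Dst had 62 spanned exons among its 103 internal exons, with 24, 2 and 18 in the naïve, 8, 9 and 27 in the mild EAE and 2, 0, 0 and 43 in the severe EAE lists. Lrp1, an endocytic receptor, had 52 of 87, with 9, 0 and 12 in the naïve, 18, 5 and 18 in the mild EAE and 1, 0, 2 and 36 in the severe EAE lists. Syne1, a linker of the nucleus to the cytoskeleton, had 41 of 144, Col11a1 had 37 of 65 and Macf1 had 36 of 98. In none of these 5 genes did the naïve and EAE mice separate.

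**Figure D5:**
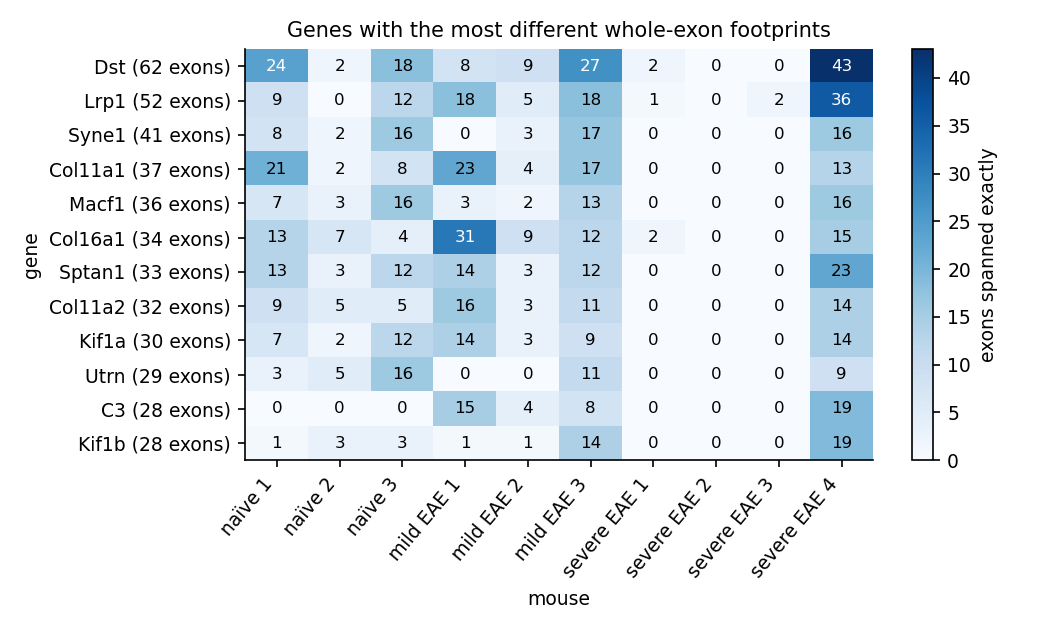
Number of different exons spanned exactly in each mouse for the 12 genes with the most such exons, with the total in parentheses. Colour and digits give the same count. C3 is at 0 in the 3 naïve mice and at 15, 4 and 8 in the mild EAE mice.

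Complement C3, the central protein of the complement cascade, stood out among the genes of many exons and is named because its values were seen. It had 28 spanned exons, with 15, 4 and 8 in the mild EAE lists, 19 in that of severe EAE mouse 4 and 0 in the 3 naïve mice and in severe EAE mice 1 to 3. All 3 naïve mice nevertheless had a footprint somewhere on C3. The longest of its exons in 3 mice was exon 21 of 213 nt. In the same pattern were Col1a2, a chain of collagen I, with 3 exons each for mild EAE mice 2 and 3 and with 4, 1, 1 and 2 for the severe EAE mice, and A2m, a protease inhibitor of plasma, with 9 exons in all. Abca1, the cholesterol exporter, had 4, 1 and 3 exons in mild EAE mice and 3 in severe EAE mouse 4, and no naïve mouse had any footprint on it.

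Such genes, spanned in at least 2 EAE but no naïve mice, numbered 529 of 3038 (17.4%). Of all genes with a footprint, 10.5% were footprinted in at least 2 EAE but no naïve mice. The opposite pattern held for 34 genes (1.12%), where 2.42% of footprinted genes had footprints in at least 2 naïve but no EAE mice. Exon-level and gene-level patterns are not the same measure, and 7 EAE mice against 3 naïve mice favour the first. The leading gene of the opposite pattern was Gas5, a noncoding host of snoRNAs, with 1, 2 and 6 exons in naïve mice. The others had at most 3 spanned exons each.

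The marker genes of spinal cord cells were footprinted widely, 19 of 20 for neurons, 13 of 15 for oligodendrocytes and 12 of 12 for astrocytes. Exons spanned exactly were found in 15 of the 19 neuronal genes, 8 of the 13 oligodendrocyte genes and 9 of the 12 astrocyte genes. Sirt2 led the genes of oligodendrocytes with 13 spanned exons, and the astrocyte gene Ndrg2 had 11. Of 24 genes of microglia and leukocytes, 20 were footprinted and 11 had a spanned exon. Of these 11 genes, 0, 3 and 0 had one in the 3 naïve lists, 5, 0 and 4 in the mild EAE lists and 0, 0, 1 and 6 in the severe EAE lists. For scale, the genes with any spanned exon numbered 703, 420 and 847 in the naïve lists, 1033, 455 and 1470 in the mild EAE lists and 89, 6, 18 and 1712 in the severe EAE lists. Csf1r, a receptor of macrophages, had 4 and Cd74, the invariant chain of antigen presentation, had 3 spanned exons, none of them in a naïve mouse, whereas the 2 exons of H2-D1, a class I histocompatibility gene with near-identical relatives, were spanned in naïve mouse 2 alone. The part of cell composition in these counts was not tested.

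Of the lists, those of the cytoskeleton had the highest share of genes with a spanned exon. All 13 footprinted spectrins, ankyrins and giant linkers had one, as did 20 of 21 genes of microtubule proteins and motors. Among the motors Kif1a had 30 spanned exons, Kif1b 28, Dync1h1, the heavy chain of dynein, 26 and Kif5a 20. Of pumps and channels 13 of 19 had one, and of axonal adhesion genes 11 of 16, with Nfasc leading at 12. Against these, 26 of 51 footprinted genes of hnRNP proteins, SR proteins and splicing regulators had a spanned exon, with Hnrnpk at 9 and Hnrnpm at 8. All these shares exceed the 21.8% of footprinted genes, but the lists were not matched to other genes for number of exons or expression. The exons of Hnrnpk were spanned in mild EAE mice 1 and 3, with 2 and 7, and in severe EAE mouse 4, with 3, and in no naïve mouse.

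Genes with well studied alternative exons had a spanned exon in 31 of 36 cases, most often in a constitutive exon. In Ank3, the ankyrin of nodes of Ranvier and axon initial segments, 9 of 13 spanned exons were skipped ones. Camk2b, a kinase subunit of synapses, had 2 of 14. In Grin1, which encodes the obligate NMDA receptor subunit, the skipped exon of 63 nt was spanned in 1 mild EAE mouse. Ank2 had 1 of 22, an exon of 24 nt. The skipped exons of Ank3 included the adjacent exons 20, 21 and 22, and 1 transcript without such a stretch is enough for the call.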

How the data were processed

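Spinal cord hnRNP A1 CLIPseq of 3 naïve, 3 mild EAE and 4 severe EAE mice was analysed as the authors deposited it, 1 list of genome positions per mouse with no score, strand or count. Per the study's methods, reads were demultiplexed (bcl2fastq 2.19.0.316) and trimmed (fastp), assembled into contigs with rnaSPAdes and aligned to GRCm38 in spliced mode with minimap2 2.17. Sites of the matched input and of pooled IgG precipitations were subtracted, and overlapping or adjoining sites were merged without strand. Subtraction and merging can both move a footprint's end. Inputs and IgG pools were not analysed here.

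Exons were those of GENCODE mouse release 21 on GRCm38 patch 6. Footprint starts, counted from 0 in the lists, were converted, and both ends had to match. The matching was tested on simulated data. An internal exon was called skipped or constitutive over basic, multi-exon transcripts without retained introns. Partly covered exons were internal exons with a covered base but not all covered, 1 for each cluster of overlapping exons of a gene. Printed sequences came from the RefSeq copy of GRCm38.

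Mild and severe groups follow the study's names and the scores in the labels, and EAE mice carry the study's numbers, since their labels number them across both groups. Group means used two-sided exact permutation tests over mice and paired values exact sign-flip tests, with Benjamini-Hochberg adjustment over 3 shares, 5 properties and 6 paired properties. For 3 mice against 7 the smallest p is 0.00833 and for 3 against 4 it is 0.0286. Labels name separate mice as replicates. Named exons are the 10 in the most mice, the 5 in the most naïve mice and no EAE mouse, the 5 in the most EAE mice and no naïve mouse, up to 8 skipped exons in at least 3 mice, and the 5 genes with the most exons. Ties went to more groups, then to the longer exon. Results for a few named genes are not reported here. The members, gene lists and tests were chosen with earlier results of these data known. Python 3.11.15, numpy 2.4.6, scipy 1.17.1, pysam 0.24.0, samtools 1.23.1 and matplotlib 3.10.9 were used.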

Additional observations from a re-analysis of the deposited data

Results flagged for a closer look

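Within the severe EAE group, mouse 4 stood apart from the other 3 mice in its number of exons spanned exactly (3604, against 6, 20 and 100) and in their share of its footprints (11.3%, against 2.87% to 3.75%). The paper also describes this mouse as an outlier whose binding profile resembled that of naïve and mild EAE mice. It reports that the mouse, unlike the other 3, had been in remission shortly before the experiment ended. Severe EAE mouse 2 stood apart in the share of coding exons with a length divisible by 3 (75%, from 4 exons), and severe EAE mouse 3 in the share of internal exons with a footprint on the next exon (66.7%, from 18 exons). In each case the gap to the nearest mouse, as a share of the group's range, exceeded the 95% critical value for 4 mice, which chance exceeds in about 1 of 20 groups. The causes were not tested.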

How the results depend on the processing

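Of the alternatives tried, 181 kept the direction and the side of the threshold, or moved a count by at most 1.5 times. In 17 the direction turned (7 of them leaving out 1 mouse), 10 moved a count further, 8 lost the threshold and 1 gained it. The shorter length of exons spanned exactly, which is partly built in by the rule, kept both under every alternative run. Their higher next-exon share turned to -8.89 points when counted per splice site with a footprint end, an alternative added after seeing the data, and kept both under the others. Leaving out 1 mouse moved the EAE minus naïve difference between -0.194 and 2.16 points for the share of footprints, between -3.64 and 3.83 nt for length, between -2.90 and 3.12 points for divisibility by 3, between -5.26 and 0.300 points for the next-exon share and between -0.0472 and 1.14 for UAG per 1000 nt. Severe EAE mouse 2 set the highest length and the lowest divisibility, and mouse 3 the highest next-exon share. Of footprints that overlap an exon, the EAE minus naïve difference in share was -0.330 points. In the 8 mice with at least 30 whole-exon footprints the differences were 3.13 nt for length, -1.81 points for divisibility by 3, -1.08 for alternative exons, now past the threshold before adjustment, and -0.198 for UAG, which was -0.151 in coding genes. Without severe EAE mice 2 and 3, an alternative added after seeing the data, severe EAE exceeded naïve by 1.36 points.

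Against partly covered exons, limiting lengths to 60 to 200 nt took divisibility by 3 to 2.167, alternative exons to -1.32, UAG to -0.267 and AGGU to -0.0585, none of them past the threshold. All annotated transcripts took alternative exons to -1.79. Leaving out collagen genes, added after seeing the data, gave -3.84 for divisibility by 3 and -2.62 for alternative exons over 10 mice, and 1.24 and -0.586 over the 8 mice with at least 30 whole-exon footprints, so that both calls were lost. Without severe EAE mouse 2 as well, divisibility by 3 was at -0.0981. Exons shared within a group numbered 91 to 280 in naïve, 219 to 512 in mild EAE and 1 to 52 in severe EAE mice when 1 mouse was left out, and 40, 102 and 0 when 3 mice were asked for.

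Mouse numbers in the labels are shared by different animals, so pairing has no basis beyond the number. By these numbers, naïve mice 1, 2 and 3 pair with severe EAE mouse 1, severe EAE mouse 2 and mild EAE mouse 1. The other EAE mice, among them severe EAE mouse 4, have no partner and were left out. With the label number as a block over the 3 shared numbers, the EAE minus naïve difference was 0.399 points for the share of footprints (exact permutation p = 1) and 0.635 for the next-exon share, the latter opposite in direction to the unblocked one. The smallest p for 3 pairs is 0.25, so no block can pass the threshold. The files give no read depth per site, which limits what a bare exon shows, most of all in the short lists of severe EAE mice 1 to 3. By the paper's sequencing summary, mapped unique reads of these 3 mice lay within or above the range of naïve mice. Severe EAE mouse 4 had the most of the 10 mice and naïve mouse 2 the fewest. The library of severe EAE mouse 2 had by far the largest average fragment size of the 10 in that summary. The part of depth or of fragment size in the lists was not tested.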
